A study of Rattus norvegicus with 24 samples.

Results

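Wound areas treated with CuNZ@Gel were compared with areas of Sham wounds within Segment 1 of a spatial profiling experiment on diabetic rat skin. All areas whose label carried Segment 1 and either of these treatments were taken, which gave 8 of the 24 areas of the series, 4 for each treatment. The 4 CuNZ@Gel areas came from 2 numbered specimens with 2 regions each, and the 4 Sham areas were arranged in the same way. The rats were male, of the SD strain, had diabetes induced with streptozotocin (STZ) at 5 weeks of age, and carried full-thickness skin defects of 8 mm that were splinted so that they could not contract; wounds were collected on day 7. Diabetes, defect and splint were common to both treatments, so neither group was healthy skin. CuNZ@Gel wounds received a hydrogel that the series title describes as a sprayable nanozyme hydrogel, Gel wounds are labelled only by that word, and what Sham wounds received is not spelled out. The composition of the nanozyme is not given in the labels, and the expansion of "mac" in the region names is not given either. The 4 Gel areas of the same segment served for the estimate of the spread and for side-by-side values.

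In GeoMx digital spatial profiling, probes with indexing tags are hybridised to a fixed section, areas are outlined on immunofluorescence, and light releases the tags of each area for sequencing. The labels name neither the fluorescent markers nor what sets Segment 1 apart from Segment 2. Whether each numbered specimen came from its own animal is not stated, so the p-values below may be too small. They take specimens as replicates, 2 per treatment. In the main test the spread of a target was mostly borrowed from other targets. That shared estimate typically carried 62.5 degrees of freedom, against 3 from the target's own specimens. Each area holds many cells, so that fewer cells of a type and less RNA per cell cannot be told apart.

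Several gene families frame the comparison. Metallothioneins are small cysteine-rich proteins that bind zinc and copper, and the metal-sensing transcription factor MTF1 drives them through metal response elements in their promoters. In a healing wound, macrophages clear debris and blood and shift from inflammatory to repair programmes, with complement components, class II antigen presentation and lysosomal proteases among their products. Fibroblasts and myofibroblasts meanwhile lay down a provisional matrix of fibronectin, tenascins and collagens, which is later organised by fibril-associated collagens, small proteoglycans and elastic fibres.

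The promoters of both metallothionein genes that were read well above background are shown because Mt2 was called here and both genes differed widely between CuNZ@Gel and Gel. They are the 250 bases before the transcription start in RefSeq's rat assembly GRCr8, at chr19:10838709-10838958 for Mt2A and chr19:10832976-10833225 for Mt1, both on the minus strand. The target called Mt2 in the files was matched to rat Mt2A through its RefSeq synonym. Capitals mark every match, on either strand, to TGCACNC or TGCGCNC, the forms of the core of the metal response element.
Mt2A: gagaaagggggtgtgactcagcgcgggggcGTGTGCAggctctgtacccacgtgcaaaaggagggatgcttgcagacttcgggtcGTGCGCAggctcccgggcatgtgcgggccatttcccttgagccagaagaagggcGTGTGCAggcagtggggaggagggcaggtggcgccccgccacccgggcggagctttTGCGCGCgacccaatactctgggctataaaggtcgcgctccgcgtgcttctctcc
Mt1: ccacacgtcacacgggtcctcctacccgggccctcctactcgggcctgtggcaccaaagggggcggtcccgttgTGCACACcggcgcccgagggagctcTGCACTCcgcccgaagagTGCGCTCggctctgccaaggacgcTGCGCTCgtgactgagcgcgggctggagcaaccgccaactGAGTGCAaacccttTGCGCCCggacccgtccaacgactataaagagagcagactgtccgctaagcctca
The Mt2A window held 4 matches and the Mt1 window 6, with no overlap between matches. At least 1 match occurred in 20.57% of 33469 rat promoters of this length, 4 or more in 0.266% and 6 or more in 0.027%. A match is only a run of letters and does not show binding.

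The files gave a signal value for each of 19963 targets, scaled so that the 75th percentile was 12.3 in every Segment 1 area. Counts recovered from the values summed to between 358592 and 831658 per CuNZ@Gel area and to between 490586 and 1476512 per Sham area. Odorant and pheromone receptors, which skin should not express, set a background for each area at their 99th percentile, 12.3 to 13.8 in CuNZ@Gel areas and 11.9 to 14.3 in Sham areas. The negative probe read slightly higher in CuNZ@Gel areas (3.19 to 3.64) than in Sham areas (2.51 to 3.06), without overlap. Areas of 1 specimen correlated at r = 0.913 to 0.960 over log2 values, areas of the same treatment but another specimen at 0.892 to 0.956, and areas of different treatments at 0.853 to 0.945.

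Markers of macrophages and of fibroblasts were above background in both groups. Of 20 pan-macrophage markers, 11 were above background in at least 2 of the 8 areas, with Cd68 and Csf1r above it in all 8 and Adgre1 in 0. Their summed signal was 1382 to 1699 in CuNZ@Gel areas and 1900.2 to 2155 in Sham areas. Of 18 fibroblast markers, 13 were above background, with sums of 3857 to 4098 in CuNZ@Gel areas and 4321 to 5314 in Sham areas. The 9 erythroid targets, of which 3 were above background, summed to 50.7 to 242 in CuNZ@Gel areas and 886 to 1830.2 in Sham areas. Most of the Sham sum came from Hba-a1. None of 18 keratinocyte and 10 mast cell markers passed background in 2 areas. Of 20 endothelial markers 9 did, with sums of 520 to 656 in CuNZ@Gel areas and 361 to 606 in Sham areas, while the defining marker Pecam1 was at background in all 8 areas. Non-overlapping sums were also seen for 10 dendritic cell markers (392 to 556 in CuNZ@Gel areas, 219 to 301 in Sham areas), 14 adipocyte markers (192 to 282 in CuNZ@Gel areas, 97.4 to 159 in Sham areas), 10 B cell and plasma cell markers (52.7 to 69 in CuNZ@Gel areas, 42.7 to 51.9 in Sham areas) and 10 Schwann cell and nerve markers (90.1 to 101 in CuNZ@Gel areas, 120 to 146 in Sham areas). The part of these differences in the results below was not tested.

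Of 19613 targets tested with limma on specimen means of log2(value + 1), 193 (0.984%) differed between CuNZ@Gel and Sham at a Benjamini-Hochberg adjusted p under 0.05: 59 (0.301%) were higher in CuNZ@Gel and 134 (0.683%) lower. Among the 5588 targets above background in at least 2 of the 8 areas, 179 (3.2%) were called, 51 higher (0.913%) and 128 lower (2.29%). For all 193 called targets both CuNZ@Gel specimens lay on 1 side of both Sham specimens, an arrangement that 43.6% of all tested targets shared. The median log2 change was 0.07 over all targets tested and -0.10 over those above background. The split was 30.6% higher with the deposited scaling, 49.5% (91 of 184) after quantile normalisation and 45.5% (91 of 200) after median centring. It was 15.6% (15 of 96) by DESeq2 and 46.6% without Sham specimen 2. Without limma's trend and robust steps 10 targets were called, 9 of them among the 193. Leaving out 1 specimen at a time gave 61 to 363 calls, fewest without CuNZ@Gel specimen 2 and Sham specimen 1 (61 and 65). Of the 57 called targets named below, 36 lost their call in at least 1 of these fits: 32 without Sham specimen 1, 30 without CuNZ@Gel specimen 2, 21 without CuNZ@Gel specimen 1, 9 without Sham specimen 2 and 1 without each Gel specimen. The highest adjusted p of each is given where the target is described, with only the specimen whose omission gave it. Many calls were lost in more than 1 of these fits. S100a4 lost its call in 5 of them, and Lum, Mcam, Magt1, Slc31a2, S100a16 and Bnip3 in 4.

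**Figure D1:**
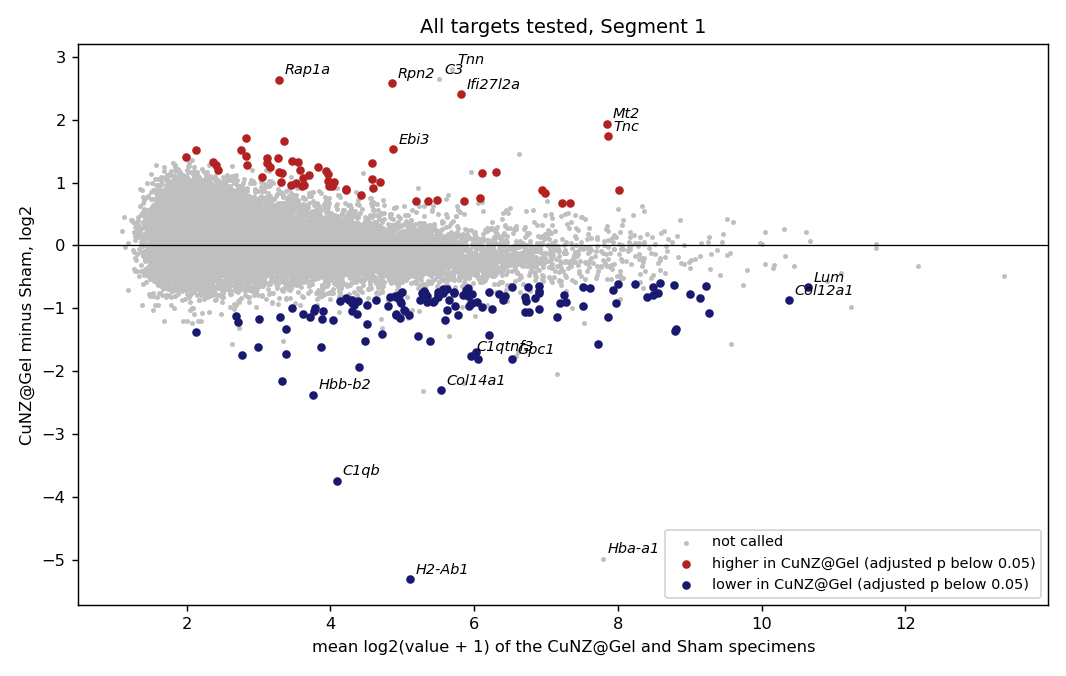
Each point is 1 of the 19613 targets tested in Segment 1, with the mean log2(value + 1) of the CuNZ@Gel and Sham specimens on the x axis and CuNZ@Gel minus Sham (log2) on the y axis. The 59 targets called higher in CuNZ@Gel are red, the 134 called lower are dark blue, and H2-Ab1 at -5.31 lies farthest from 0.

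Metallothionein 2 rose strongly over Sham but stayed far below Gel. Mt2 had values of 437, 518, 509 and 360.3 in the 4 CuNZ@Gel areas, against 73.6, 124, 128 and 159.8 in the 4 Sham areas. Every CuNZ@Gel area was above every Sham area, and the log2 change was 1.94 ± 0.17 (SE, adjusted p = 7.1e-12). The same gene read 4130.2, 2371, 2298 and 2396 in the 4 Gel areas, far above both other treatments, so that CuNZ@Gel minus Gel was -2.58 (adjusted p = 1.81e-16). Mt1 read 64.6, 75.4, 48.1 and 43.7 in CuNZ@Gel areas and 41.8, 46.9, 38.7 and 37.5 in Sham areas. Specimen 1 of CuNZ@Gel was high and specimen 2 overlapped Sham, and the log2 change of 0.45 ± 0.18 (SE, adjusted p = 0.313) did not pass. Against the 240.2 to 410.4 of Gel areas, Mt1 was lower in CuNZ@Gel by a log2 change of -2.32 (adjusted p = 3.98e-15). Mt2 lost its call after quantile normalisation (adjusted p = 0.333) and under limma without trend and robust steps (adjusted p = 0.0608), and kept it under the other 20 alternatives.

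Among genes that move copper, zinc or iron, a copper transporter and a ferritin chain were called. Of 18 copper and zinc handling targets tested, 0 were called higher and 1 lower, against 0.984% called over all targets, and the median of the 9 above background was -0.10, as it was over all targets above background. Slc31a2, a copper transporter of endosomes and lysosomes, read 34.3, 36.2, 35.8 and 30.7 in CuNZ@Gel areas and 59.9, 62, 59.2 and 49.8 in Sham areas. The groups did not overlap, with a log2 change of -0.73 ± 0.19 (SE, adjusted p = 0.0258). Sod1, the copper- and zinc-dependent superoxide dismutase, read 87.7 to 119 in CuNZ@Gel areas and 138 to 165 in Sham areas, a difference that did not pass (-0.56, adjusted p = 0.106). Of 13 iron handling targets, 1 fell, against 0.683% called lower over all targets. This was the ferritin light chain Ftl1 (log2 change -0.62, SE 0.16, adjusted p = 0.0366). It read 309, 324, 523 and 304 in CuNZ@Gel areas and 607, 637, 547 and 423 in Sham areas, and the third CuNZ@Gel area overlapped Sham. The ferritin heavy chain Fth1 read 1491 to 2384 in CuNZ@Gel areas and 1779 to 4978 in Sham areas and did not pass (-0.98, adjusted p = 0.409). Slc3a2, the heavy chain of the cystine and glutamate exchanger, fell to 26.1 to 33 in CuNZ@Gel areas, against 38.2 to 71.4 in Sham areas (log2 change -0.75, adjusted p = 0.0387). It was the 1 call among the 14 targets of the ferroptosis and cuproptosis list, against 0.984% over all targets. The calls of Slc31a2 (adjusted p = 0.581), Ftl1 (adjusted p = 0.991) and Slc3a2 (adjusted p = 1) did not hold without Sham specimen 1.

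The haemoglobin targets Hba-a1 and Hbb-b2 read far lower in CuNZ@Gel areas. They were 2 of the 3 erythroid targets above background, and the third had a log2 change of 0.26. Hbb-b1 was at background in all 8 areas, and the median change over all 9 erythroid targets tested was -0.05. Hba-a1, an alpha-globin, read 13.1, 35.6, 186 and 23.8 in CuNZ@Gel areas, against 1752, 1030.2, 1584 and 823 in Sham areas. All Sham areas were far above all CuNZ@Gel areas. The log2 change of -4.98 ± 0.65 (SE, adjusted p = 0.154) did not pass, and the CuNZ@Gel specimens were themselves far apart. It passed under 7 of 22 alternatives, among them edgeR on recovered counts (adjusted p = 4.4e-17); 2 of the 7 leave 1 CuNZ@Gel specimen, so that the spread between these specimens no longer enters. Hbb-b2, a beta-globin, read 2.04, 5.52, 12.3 and 3.83 in CuNZ@Gel areas and 42.6, 23.8, 42.3 and 18.6 in Sham areas, and fell by 2.37 on the log2 scale (SE 0.29, adjusted p = 1.82e-08). The CuNZ@Gel areas were all at background, like the Gel areas (1.69 to 6.13). The genes called below were measured in areas that differed in this way, and the part of blood in them was not tested.

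Single complement and antigen presentation targets changed sharply while their partners did not pass. C1qb encodes 1 of the 3 chains of C1q, the recognition molecule of the classical pathway. It read 2.86, 4.29, 4.72 and 3.07 in CuNZ@Gel areas, all at background, against 45.4, 51.2, 52.7 and 114 in Sham areas. The groups were far apart, with a log2 change of -3.74 ± 0.21 (SE, adjusted p = 6.17e-17). Gel areas read 102, 115, 145 and 201, so that C1qb was also lower in CuNZ@Gel than in Gel, by a log2 change of -4.87 (adjusted p = 4.61e-21). The other 2 chains, named here after their values were seen, did not pass: C1qa read 33 to 72.8 in CuNZ@Gel areas and 33.2 to 105 in Sham areas (-0.04, adjusted p = 0.965). C1qc read 129 to 219.5 in CuNZ@Gel areas and 95.9 to 402 in Sham areas (0.27, adjusted p = 0.918).

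H2-Ab1, named after the mouse beta chain of a class II molecule, had the largest fall. It read 4.91, 2.45, 4.72 and 6.90 in CuNZ@Gel areas, all at background, against 258, 118, 266 and 272 in Sham areas, a log2 change of -5.31 ± 0.23 (SE, adjusted p = 8.21e-28). Gel areas were as low as CuNZ@Gel areas (2.73 to 3.77; CuNZ@Gel minus Gel 0.37, adjusted p = 0.799). Of 7 class II targets tested this was the only call, against 0.984% over all targets. The median of the 4 above background was -0.09. Cd74, the invariant chain that escorts class II molecules, read 87.7 to 134 in CuNZ@Gel areas and 56.3 to 175 in Sham areas (-0.07, adjusted p = 0.986). H2-Eb1, another class II beta chain by its mouse name, read 189 to 216 in CuNZ@Gel areas and 77.9 to 201 in Sham areas (0.49, adjusted p = 0.873). Target names follow mouse usage, H2-Ab1 has no rat gene of the same symbol in RefSeq, and the probe sequences were not used here, so how well H2-Ab1, Ifi27l2a, Clec2j or 2310022A10Rik reads a rat transcript was not tested.

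Of 18 complement targets 1 rose and 2 fell, against 0.301% called higher and 0.683% lower over all targets. C3, the central component of the cascade, read 143, 150.2, 64.2 and 117 in CuNZ@Gel areas, against 10.1, 11.5, 19.7 and 37.1 in Sham areas. The groups did not overlap, yet the log2 change of 2.64 ± 0.61 (SE, adjusted p = 0.334) missed the threshold. Gel areas read 73.6 to 402. The difference passed under 4 of 22 alternatives, with edgeR at an adjusted p of 7.23e-11; 2 of the 4 leave 1 Sham specimen, whose spread is then taken from the other groups. Cfb, the factor B of the alternative pathway, rose by a log2 change of 1.51 ± 0.28 (SE, adjusted p = 0.000328). Its values were low and overlapped narrowly, with 6.60 to 15.3 in CuNZ@Gel areas and 1.44 to 6.66 in Sham areas. Only 1 CuNZ@Gel area was above background for Cfb. C5ar1, the receptor for the anaphylatoxin C5a on myeloid cells, fell to 86.3, 86.5, 45.3 and 75.1 in CuNZ@Gel areas, against 162, 198, 120.0 and 129 in Sham areas (log2 change -1.06, adjusted p = 0.00188). Fcnb, a ficolin that starts the lectin pathway, rose by 1.43 (adjusted p = 0.0108) with 8.49 to 12.9 in CuNZ@Gel areas and 2.89 to 4.57 in Sham areas. Only 2 CuNZ@Gel areas and no Sham area were above background for Fcnb. The calls of Cfb (adjusted p = 0.0626) and Fcnb (adjusted p = 0.393) did not hold without Sham specimen 1. The call of C5ar1 (adjusted p = 0.365) did not hold without CuNZ@Gel specimen 2.

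**Figure D2:**
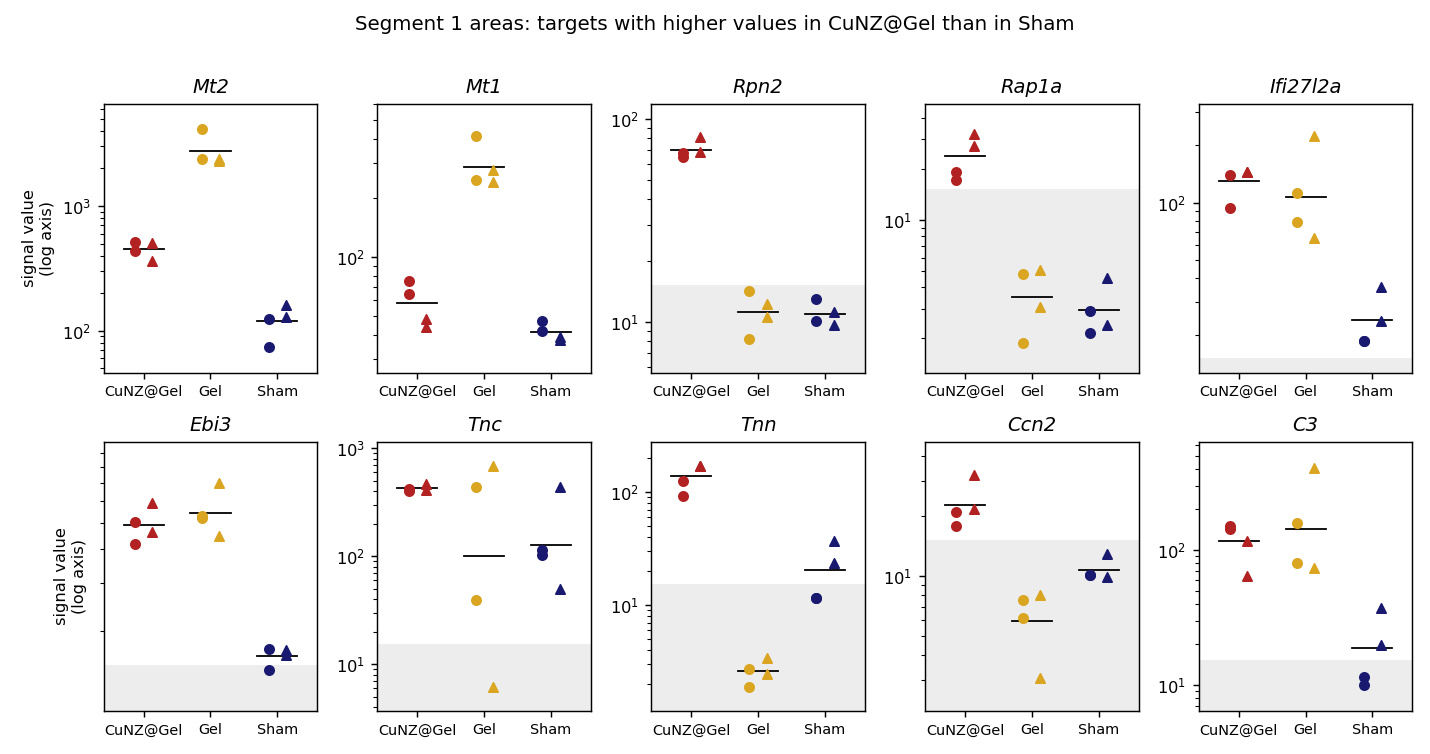
Signal value (log axis) of 10 targets in each Segment 1 area, with circles for specimen 1, triangles for specimen 2, a black line at the mean of the specimens and grey for values under the highest background of any area, 15.0. CuNZ@Gel areas lie above Sham areas without overlap in every panel except Mt1 and Tnc; Mt2 and Mt1 are highest in Gel.

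Interferon and cytokine targets included 2 of the strongest rises. Ifi27l2a, an interferon-inducible gene, read 139, 93.8, 144 and 146 in CuNZ@Gel areas and 18.8, 18.8, 23.8 and 35.7 in Sham areas. The lowest CuNZ@Gel area was still above the highest Sham area, with a log2 change of 2.41 ± 0.19 (SE, adjusted p = 3.17e-14). It was the only call among 18 interferon-inducible targets, of which 2 were above background, against 0.984% called over all targets. Ebi3, a subunit shared by interleukins 27 and 35, read 50.3, 41.7, 46.2 and 59 in CuNZ@Gel areas and 17.3, 14.4, 17.1 and 16.5 in Sham areas (log2 change 1.53, SE 0.19, adjusted p = 3.13e-08). Ifi27l2a and Ebi3 read 64.7 to 224 and 44.8 to 69.9 in Gel areas, and neither passed between CuNZ@Gel and Gel (log2 changes 0.27 and -0.14). Nfkbia, the inhibitor of NF-kB that NF-kB itself induces, rose to 20.8 to 49.8 in CuNZ@Gel areas, against 15.1 to 20 in Sham areas (log2 change 1.01, adjusted p = 0.00454). It was the 1 call among 15 targets of that pathway, against 0.984% over all targets. The pathway's median above background was 0.57 over 3 targets. Tnfrsf14, a receptor of the tumour necrosis factor family, rose to 14.2 to 21.5 in CuNZ@Gel areas, against 1.44 to 9.11 in Sham areas (log2 change 1.35, adjusted p = 0.00143). No Sham area was above background for Tnfrsf14. The call of Nfkbia (adjusted p = 0.757) did not hold without CuNZ@Gel specimen 2. The call of Tnfrsf14 (adjusted p = 0.58) did not hold without Sham specimen 1.

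Macrophage targets were lower where they changed. Of 19 pan-macrophage targets tested, 0 were called higher and 3 lower, against 0.301% and 0.683% over all targets. The median of the 11 above background was -0.41, against -0.10 over all targets above background. Among the lower ones were C1qb and Cd53. Cd53, a leukocyte tetraspanin, read 48.2, 66.8, 60.4 and 71.3 in CuNZ@Gel areas and 156, 109.7, 99.8 and 70.8 in Sham areas, where 1 Sham area fell among the CuNZ@Gel areas (log2 change -0.77, adjusted p = 0.0198). Cd68, the lysosomal protein used as the general macrophage marker, read 175 to 228 in CuNZ@Gel areas and 204 to 388 in Sham areas and did not pass (-0.54, adjusted p = 0.193). The call of Cd53 (adjusted p = 1) did not hold without Sham specimen 1.

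Repair-macrophage targets gave 1 call of 19, against 0.984% over all targets. The median of the 7 above background was -0.73, against -0.10 over all targets above background. Mrc1, the mannose receptor CD206, read 35.6, 30, 38.7 and 30.7 in CuNZ@Gel areas, against 67.1, 91.6, 72.9 and 50.5 in Sham areas. The CuNZ@Gel areas were all lower (log2 change -1.02, SE 0.18, adjusted p = 0.000258). They were also lower than Gel areas (50.3 to 88.8; CuNZ@Gel minus Gel -1.08, adjusted p = 6.16e-05). Arg1, the arginase of repair macrophages, read 42.5, 47.2, 70.8 and 58.3 in CuNZ@Gel areas and 228, 277, 156 and 95.7 in Sham areas, again without overlap. Its log2 change of -1.69 ± 0.46 (SE, adjusted p = 0.337) did not pass. Gel areas read 10.4 to 245. None of 20 inflammatory macrophage targets was called in either direction, but only 4 of them were above background (median -0.24). Il1b, Tnf and Nos2, the usual inflammatory markers, were at background in all 8 areas. For instance, Tnf read 2.30 to 7.55 in CuNZ@Gel areas and 4.33 to 6.25 in Sham areas (log2 change -0.33, adjusted p = 0.767). The call of Mrc1 (adjusted p = 0.104) did not hold without Sham specimen 1.

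Lysosomal targets of macrophages gave 2 falls among 19 tested, against 0.683% called lower over all targets. The median of the 11 above background was -0.57, against -0.10 over all targets above background. Ctsz, cathepsin Z, fell to 265 to 330.4 in CuNZ@Gel areas, against 375 to 559 in Sham areas (log2 change -0.66, adjusted p = 0.0239). Cd63, a tetraspanin of late endosomes, fell to 465 to 498 in CuNZ@Gel areas, against 635 to 883 in Sham areas (-0.64, adjusted p = 0.0214). Ctsl, cathepsin L, read 22.9, 49.1, 28.3 and 23.8 in CuNZ@Gel areas and 118, 99.6, 65.2 and 58.9 in Sham areas. The groups did not overlap, but the difference did not pass (-1.44, adjusted p = 0.353). The scavenger receptor family member Scara3 fell to background, with 5.37 to 9.43 in CuNZ@Gel areas and 22.1 to 28.9 in Sham areas (log2 change -1.61, adjusted p = 4.97e-07), and was as far below the Gel areas (18.4 to 35.6; CuNZ@Gel minus Gel -1.60, adjusted p = 4.94e-07). The calls of Ctsz (adjusted p = 1) and Cd63 (adjusted p = 0.93) did not hold without Sham specimen 1.

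**Figure D3:**
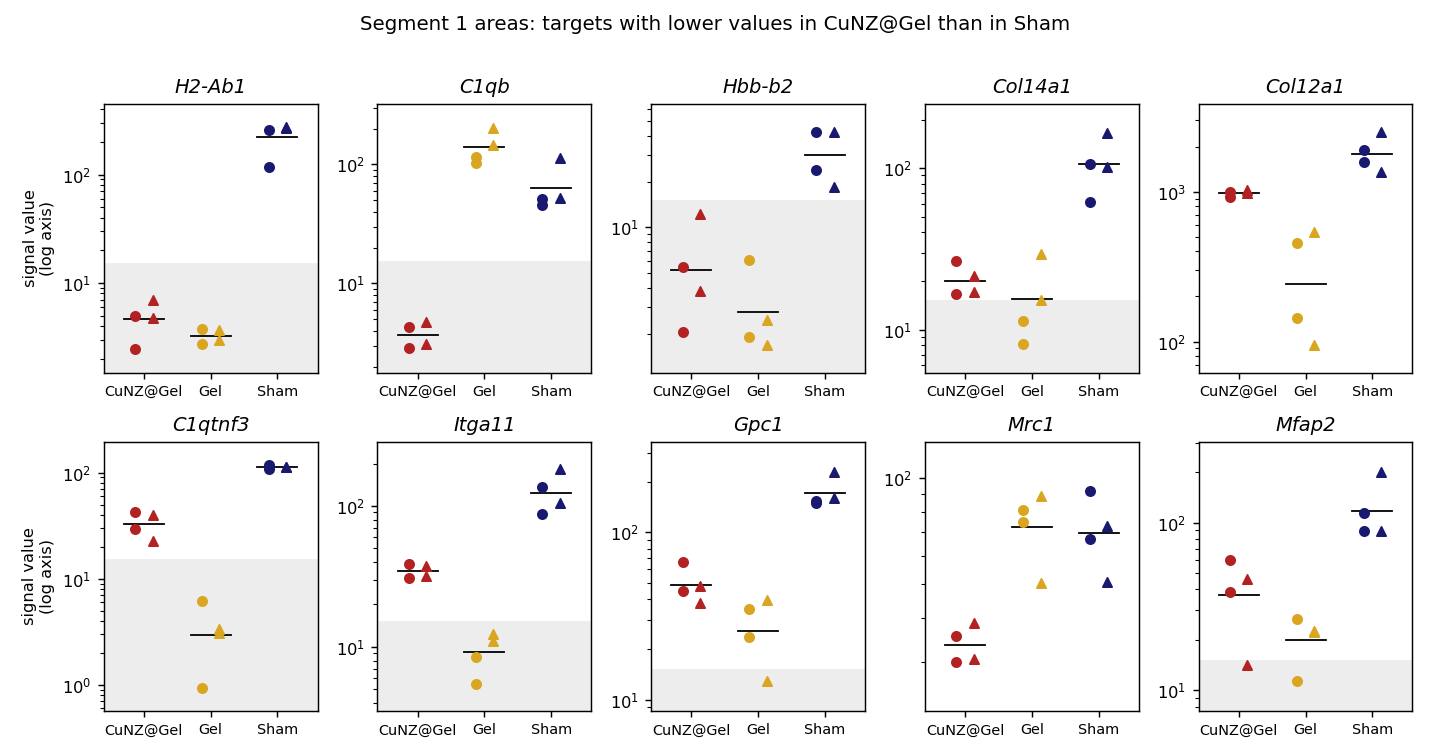
Signal value (log axis) of 10 targets in each Segment 1 area, drawn as for the higher targets. CuNZ@Gel areas lie below Sham areas without overlap in all 10 panels; Gel areas are lower still for Col12a1, C1qtnf3 and Itga11 and higher than CuNZ@Gel for C1qb and Mrc1.

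Matrix targets moved in both directions. Tenascin C, a glycoprotein of the provisional wound matrix encoded by Tnc, read 401, 423, 410.4 and 467 in CuNZ@Gel areas and 115, 102, 49.8 and 433 in Sham areas. The CuNZ@Gel areas were close together, whereas 1 Sham area was as high as they were and the other 3 were lower. The log2 change was 1.74 ± 0.25 (SE, adjusted p = 0.0028), a call that was lost under 9 of 22 alternatives. Tnn, the related tenascin N, read 125, 92.6, 169.8 and 170.2 in CuNZ@Gel areas and 11.5, 11.5, 23.6 and 37.1 in Sham areas, without overlap. Its log2 change of 2.80 ± 0.45 (SE, adjusted p = 0.065) missed the threshold and passed under 9 of 22 alternatives, with edgeR at an adjusted p of 1.78e-13; 4 of the 9 leave 1 specimen in an arm, with the spread taken from the other groups. Gel areas were at background (1.89 to 3.38), and CuNZ@Gel minus Gel was 5.25 (adjusted p = 0.0048). Ccn2, the connective tissue growth factor, rose to 17.8 to 32.2 in CuNZ@Gel areas, against 9.86 to 13 in Sham areas (log2 change 1.01, adjusted p = 0.0204). Of 18 tenascin and matricellular targets 2 rose and 1 fell, against 0.301% called higher and 0.683% lower over all targets. The one that fell was Thbs2, thrombospondin 2, with 403 to 449.9 in CuNZ@Gel areas and 535 to 1153 in Sham areas (-0.84, adjusted p = 0.000987). The calls of Ccn2 (adjusted p = 0.668) and Thbs2 (adjusted p = 0.216) did not hold without CuNZ@Gel specimen 2.

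The 2 collagens called were Col14a1 and Col12a1, which decorate fibrils. Whether they changed differently from the fibril-forming chains was not tested. Of 18 collagens tested, 2 fell and 0 rose, against 0.683% called lower over all targets. Of the 13 above background, 12 had a negative log2 change (median -0.33). Over all 5588 targets above background, 64.3% had a negative change and the median was -0.10. Col14a1 read 26.6, 16.6, 17 and 21.5 in CuNZ@Gel areas, against 62, 107, 101 and 165 in Sham areas, a log2 change of -2.30 ± 0.33 (SE, adjusted p = 0.0094). This call was lost after quantile normalisation (adjusted p = 0.181), with means of linear values (0.053), under limma without trend and robust steps (0.0891) and in region 2 only (0.366). Col12a1 read 988, 922, 985 and 1030.2 in CuNZ@Gel areas, against 1584, 1905, 1361 and 2516 in Sham areas, a log2 change of -0.87 ± 0.15 (SE, adjusted p = 0.000189). Both are fibril-associated collagens, and in neither did the areas overlap. The fibril-forming chains did not pass: Col1a1 read 274 to 319.6 in CuNZ@Gel areas and 268 to 829 in Sham areas (-0.52, adjusted p = 0.688). Col3a1, the most abundant of them, read 8309 to 9469.8 in CuNZ@Gel areas and 8715 to 25513 in Sham areas (-0.49, adjusted p = 0.807). Fibronectin, Fn1, read 1093 to 1312 in CuNZ@Gel areas and 1015 to 1767 in Sham areas (-0.17, adjusted p = 0.748). Col12a1, Thbs2 and Fn1 were all higher in CuNZ@Gel than in Gel, with log2 changes of 2.02 (adjusted p = 2.27e-16), 1.90 (adjusted p = 4.2e-14) and 1.34 (adjusted p = 1.99e-09). The call of Col12a1 (adjusted p = 0.169) did not hold without CuNZ@Gel specimen 2.

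Elastic fibre targets were called lower in 2 of 15 cases, against 0.683% over all targets. The median of the 8 above background was -0.72, against -0.10 over all targets above background. Eln, elastin itself, read 22.1, 23.9, 14.2 and 19.9 in CuNZ@Gel areas and 59.2, 45.4, 37 and 35 in Sham areas (log2 change -1.10, SE 0.22, adjusted p = 0.00274). Mfap2, a microfibril glycoprotein, read 38.4, 60.1, 14.2 and 46 in CuNZ@Gel areas and 88.7, 115, 89 and 201 in Sham areas (log2 change -1.70, SE 0.23, adjusted p = 5.81e-05). In both, the highest CuNZ@Gel area was below the lowest Sham area. Lumican, the small proteoglycan Lum, fell to 1195 to 1388 in CuNZ@Gel areas, against 1735 to 2528 in Sham areas (-0.66, adjusted p = 0.00821). Bmp1, the protease that trims procollagens, fell to 235 to 259 in CuNZ@Gel areas, against 295 to 457 in Sham areas (-0.61, adjusted p = 0.0473). Mmp19, a matrix metalloprotease, fell to 24.5 to 32.1 in CuNZ@Gel areas, against 44.5 to 57 in Sham areas (-0.86, adjusted p = 0.00598). The calls of Eln (adjusted p = 0.358), Bmp1 (adjusted p = 1) and Mmp19 (adjusted p = 0.5) did not hold without Sham specimen 1. The call of Lum (adjusted p = 0.678) did not hold without CuNZ@Gel specimen 2.

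Fibroblast markers were called lower in 3 of 18 cases and higher in 0, against 0.683% and 0.301% over all targets. The median of the 13 above background was -0.12, against -0.10 over all targets above background. Those called were Lum, Fap and S100a4. Fap, the fibroblast activation protein, read 40.1, 44.2, 25.5 and 38.3 in CuNZ@Gel areas and 58.4, 73.6, 68.8 and 67.3 in Sham areas (log2 change -0.86, adjusted p = 0.0053). S100a4, a calcium-binding protein of fibroblasts and macrophages, read 99.3, 86.5, 84.9 and 72.8 in CuNZ@Gel areas and 214, 189.7, 156 and 85.5 in Sham areas, where the lowest Sham area overlapped (-0.83, adjusted p = 0.017). S100a16 of the same family fell to 33 to 49.9 in CuNZ@Gel areas, against 59.2 to 75.3 in Sham areas (-0.74, adjusted p = 0.0387). The contractile targets of myofibroblasts did not pass: Acta2, smooth muscle actin, read 356 to 567 in CuNZ@Gel areas and 373 to 594 in Sham areas (-0.19, adjusted p = 0.964). Tagln, transgelin, read 29.2 to 67.5 in CuNZ@Gel areas and 47.1 to 81.3 in Sham areas (-0.41, adjusted p = 0.471). Against Gel areas (6.81 to 14) Tagln was higher in CuNZ@Gel, by a log2 change of 2.15 (adjusted p = 1.56e-11). The calls of Fap (adjusted p = 0.613) and S100a16 (adjusted p = 0.757) did not hold without CuNZ@Gel specimen 2. The call of S100a4 (adjusted p = 1) did not hold without Sham specimen 1.

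Several surface and secreted proteins had larger falls than any fibroblast marker. C1qtnf3, a secreted protein with a C1q-like domain, read 42.5, 29.4, 22.6 and 39.9 in CuNZ@Gel areas and 117, 108, 114 and 114 in Sham areas. The log2 change was -1.76 ± 0.20 (SE, adjusted p = 3.61e-09), and Gel areas were lower again (0.943 to 6.13; CuNZ@Gel minus Gel 3.08, adjusted p = 5.38e-19). Itga11, the integrin chain by which fibroblasts bind collagen, read 38.8, 30.7, 32.1 and 37.6 in CuNZ@Gel areas and 87.3, 136, 104 and 183 in Sham areas (log2 change -1.80, SE 0.20, adjusted p = 2.15e-09). Gpc1, the heparan sulfate proteoglycan glypican 1, read 66.2, 44.8, 37.7 and 47.5 in CuNZ@Gel areas and 154, 151, 160.2 and 231 in Sham areas (log2 change -1.81, SE 0.18, adjusted p = 6.19e-11). In each of these the groups were apart by a wide margin. Alpl, tissue-nonspecific alkaline phosphatase, read 9.40, 9.20, 7.55 and 13.8 in CuNZ@Gel areas, none above background, and 33.2, 62, 33.2 and 37.8 in Sham areas (log2 change -1.93, SE 0.22, adjusted p = 1.83e-09). Ncam1, the neural cell adhesion molecule, read 19.6 to 28.6 in CuNZ@Gel areas and 55.8 to 77.9 in Sham areas (-1.52, adjusted p = 5.81e-05). Igfbp2, a binding protein of insulin-like growth factors, read 3.68 to 6.60 in CuNZ@Gel areas and 10.5 to 26.7 in Sham areas (-1.73, adjusted p = 5.81e-05). The call of Igfbp2 (adjusted p = 0.195) did not hold without Sham specimen 1.

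The remaining large falls were of diverse kinds. Clec2j, a C-type lectin by its mouse name, read 131, 108, 133 and 116 in CuNZ@Gel areas and 447, 389.6, 337 and 292 in Sham areas (log2 change -1.57, SE 0.17, adjusted p = 2.34e-10). Cyp1b1, a cytochrome P450 enzyme, read 6.90 to 16 in CuNZ@Gel areas and 26.7 to 57.1 in Sham areas (-1.52, adjusted p = 3.24e-06). The target 2310022A10Rik, whose role is not annotated in the tables used, read 3.27, 4.29, 3.77 and 3.83 in CuNZ@Gel areas, all at background, and 18, 25.2, 20.4 and 17.9 in Sham areas (-2.15, adjusted p = 1.83e-09). It was also below Gel areas (17.8 to 23.6; CuNZ@Gel minus Gel -2.08, adjusted p = 3.51e-09).

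**Figure D4:**
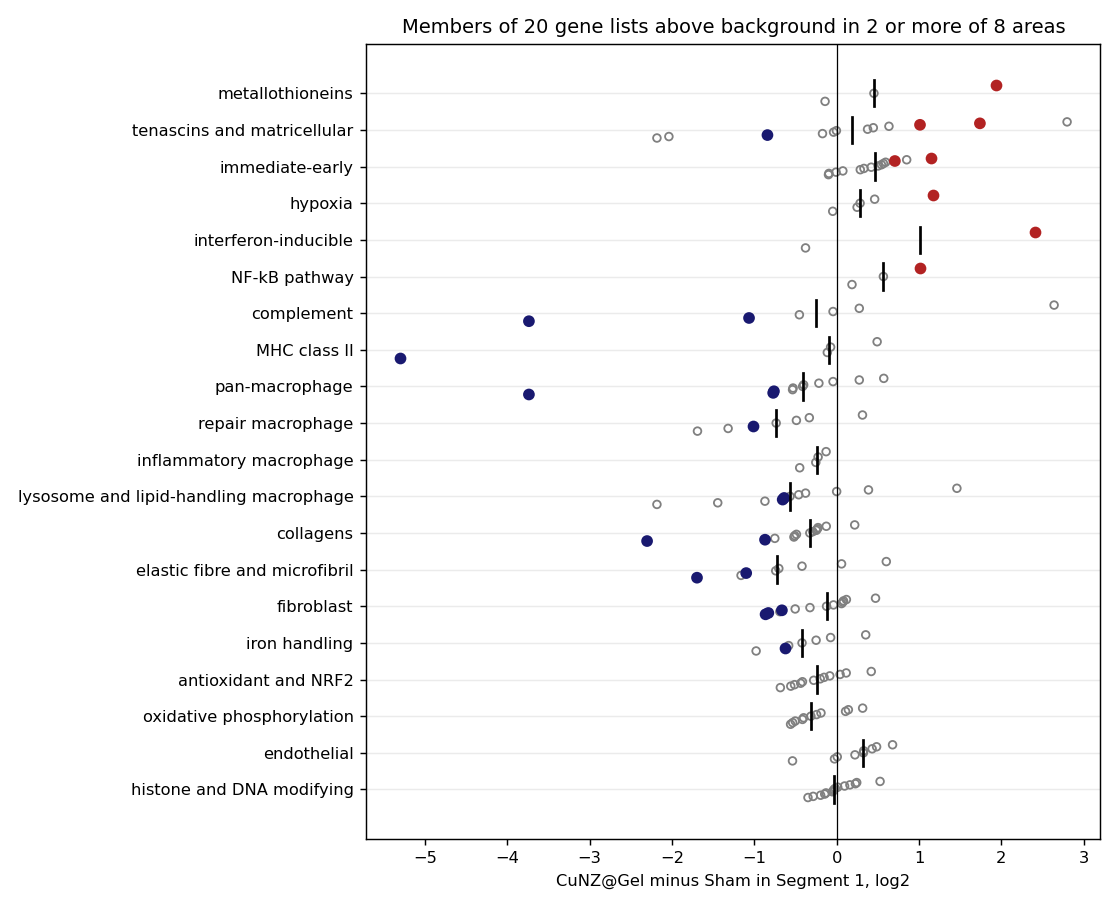
Log2 change, CuNZ@Gel minus Sham in Segment 1, of the members of 20 gene lists that were above background in at least 2 of the 8 areas; open circles did not pass, filled red points were called higher and filled dark blue points lower in CuNZ@Gel, and black bars are medians. The lowest points are H2-Ab1 at -5.31 and C1qb at -3.74, and C1qb appears under both complement and pan-macrophage.

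Rpn2 and Rap1a had the 2 largest rises among called targets. Rpn2, ribophorin II, is a subunit of the oligosaccharyltransferase that attaches glycans to nascent proteins in the endoplasmic reticulum. It read 64.6, 68.1, 81.1 and 68.2 in CuNZ@Gel areas and 10.1, 13, 9.62 and 11.2 in Sham areas. All Sham areas were at background. The log2 change was 2.58 ± 0.21 (SE, adjusted p = 6.87e-15), and against Gel areas (8.18 to 14.2) it was 2.56 (adjusted p = 5e-15). Of 12 subunits of the enzyme tested, Rpn2 alone was called higher and Magt1 lower, against 0.301% and 0.683% over all targets. Magt1 read 35.3 to 42.3 in CuNZ@Gel areas and 55.8 to 67.1 in Sham areas (-0.69, adjusted p = 0.0432). Rpn1 read 19.2 to 25.8 in CuNZ@Gel areas and 25.2 to 33.2 in Sham areas (-0.39, adjusted p = 0.477). Rap1a, a small GTPase that controls integrin adhesion, read 19.2, 17.2, 27.4 and 32.2 in CuNZ@Gel areas and 2.16, 2.89, 2.40 and 4.56 in Sham areas. All Sham areas were at background, and the log2 change was 2.63 ± 0.30 (SE, adjusted p = 1.71e-09), with 2.43 (adjusted p = 1.31e-08) against Gel. The call of Magt1 (adjusted p = 0.67) did not hold without Sham specimen 1.

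Stress and immediate-early targets gave several smaller rises. Of 18 immediate-early targets 2 rose and 0 fell, against 0.301% called higher and 0.683% lower over all targets. The median of the 14 above background was 0.46, against -0.10 over all targets above background. Btg2, an antiproliferative early gene, read 87.5, 87.7, 116 and 122 in CuNZ@Gel areas and 57, 31.7, 66.6 and 35 in Sham areas (log2 change 1.15, SE 0.18, adjusted p = 1.87e-05). Egr1, a zinc finger early factor, read 72.8, 69.9, 87.7 and 64.4 in CuNZ@Gel areas and 63.5, 48.3, 47.6 and 26.6 in Sham areas, narrowly apart (0.71, adjusted p = 0.0378). Ddit4, an inhibitor of mTOR signalling induced by hypoxia and stress, read 103, 103, 139.6 and 127 in CuNZ@Gel areas and 46.9, 54.1, 61.3 and 45.6 in Sham areas (log2 change 1.17, SE 0.20, adjusted p = 0.000787). Bnip3, a hypoxia-induced mitophagy receptor, was also called (1.32, adjusted p = 0.0323), but none of its values (5.52 to 10.7 in CuNZ@Gel areas, 1.92 to 2.89 in Sham areas) was above background. Of 18 targets for protein folding in the endoplasmic reticulum 1 rose and 1 fell, against 0.301% and 0.683% over all targets. Atf4, the transcription factor of the integrated stress response, rose to 47.8 to 58.5 in CuNZ@Gel areas, against 23.8 to 40.3 in Sham areas (0.71, adjusted p = 0.0489). Hyou1, a chaperone of the same list, fell to 46 to 68.1 in CuNZ@Gel areas, against 77.4 to 116 in Sham areas (-0.74, adjusted p = 0.0265). The calls of Btg2 (adjusted p = 0.105), Egr1 (adjusted p = 0.59), Ddit4 (adjusted p = 0.105) and Bnip3 (adjusted p = 0.657) did not hold without CuNZ@Gel specimen 2. The calls of Atf4 (adjusted p = 1) and Hyou1 (adjusted p = 0.937) did not hold without Sham specimen 1.

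Fscn1, the actin-bundling protein fascin that mature dendritic cells carry, read 313, 316, 402 and 380.2 in CuNZ@Gel areas and 146, 185, 205 and 234 in Sham areas. The groups did not overlap (log2 change 0.89, SE 0.17, adjusted p = 0.00054). This was the 1 call among 10 dendritic cell markers, against 0.984% over all targets. Mcam, an adhesion molecule of pericytes and endothelium, read 159 to 212 in CuNZ@Gel areas and 106 to 128 in Sham areas (0.68, adjusted p = 0.0226). Of 16 positional factors, transcription factors that mark body regions, 2 rose, against 0.301% called higher over all targets. Zic1 read 15.5, 17.2, 17 and 19.2 in CuNZ@Gel areas and 4.33, 5.05, 4.81 and 4.91 in Sham areas, all Sham areas being at background (1.66, adjusted p = 4.15e-06). Lhx8 read 8.49 to 13.5 in CuNZ@Gel areas and 0.721 to 4.81 in Sham areas (1.71, adjusted p = 5.9e-05). In Gel areas they read 14 to 21.1 and 8.46 to 22.1. Further rises were at low levels. Gpihbp1, which anchors lipoprotein lipase on capillaries, read 10.4 to 17.6 in CuNZ@Gel areas and 2.16 to 6.49 in Sham areas (1.31, adjusted p = 0.00134). Rtn1, a reticulon of the endoplasmic reticulum, read 9.43 to 19.6 in CuNZ@Gel areas and 2.16 to 9.46 in Sham areas (1.39, adjusted p = 0.00172). Cyb561a3, a cytochrome b561 family member, read 9.20 to 22.2 in CuNZ@Gel areas and 2.89 to 5.77 in Sham areas (1.40, adjusted p = 0.00199). For these 5 targets no Sham area was above background, nor was any for Rpn2, Rap1a, Cfb, Fcnb and Tnfrsf14. The negative probe also read lower in Sham areas, and the part of that difference was not tested. The calls of Fscn1 (adjusted p = 0.461), Mcam (adjusted p = 0.499), Gpihbp1 (adjusted p = 0.245) and Cyb561a3 (adjusted p = 0.32) did not hold without CuNZ@Gel specimen 2. The calls of Lhx8 (adjusted p = 0.0728) and Rtn1 (adjusted p = 0.558) did not hold without Sham specimen 1.

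Of all 51 lists, 30 held at least 1 call and the others none. They held 735 measured genes, of which 42 were called, against 193 of 19613 over all targets. Most tested targets were not above background in 2 areas, which lowers the shares over all targets set beside the lists. Among the 5588 that were, 179 (3.2%) were called, 0.913% higher and 2.29% lower. The lists were chosen with earlier results of these data known. Of 25 histone and DNA modifying enzymes tested (the series title speaks of epigenetic reprogramming), 0 passed, and the median of the 15 above background was -0.03. Kdm6b, the histone demethylase, read 41.7, 43.5, 50 and 59 in CuNZ@Gel areas and 46.9, 39.7, 46.9 and 38.9 in Sham areas (0.16, adjusted p = 0.834). Uhrf1, which couples histone marks to DNA methylation, read 8.99 to 20.7 in CuNZ@Gel areas and 6.49 to 13.7 in Sham areas (0.53, adjusted p = 0.401). None of 27 antioxidant targets passed, with a median of -0.24 over the 12 above background. Neither did any of 20 endothelial targets (median 0.33), 20 of oxidative phosphorylation (median -0.31), 18 of proliferation, 20 chemokines, 19 wound growth factors or 13 heat shock proteins. A change that misses the threshold with 2 specimens per group does not show that the levels were equal.

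The same contrast was read in Segment 2 of the same specimens. Of the 193 called targets, 181 had the same sign there, but the specimens are shared, so this is not an independent repeat. For Mt2 the log2 change was 1.94 in Segment 1 and 2.05 in Segment 2, for Rpn2 2.58 and 2.82, for C1qb -3.74 and -2.82, and for H2-Ab1 -5.31 and -4.74. A test of the difference between the segments called 0 of 19613 targets (0%) with limma, with 1023 (5.22%) at an unadjusted p under 0.05. This test has little power with 2 specimens per treatment, so 0 calls does not show that the segments were alike. Segment 2 areas were shallower, with 86386 to 688520 recovered counts. Targets whose rise was near 0 in Segment 2 included Rtn1 (-0.17, unadjusted p of the difference 0.00295), Atf4 (-0.01) and Mcam (-0.21), and none of these differences passed after adjustment.

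**Figure D5:**
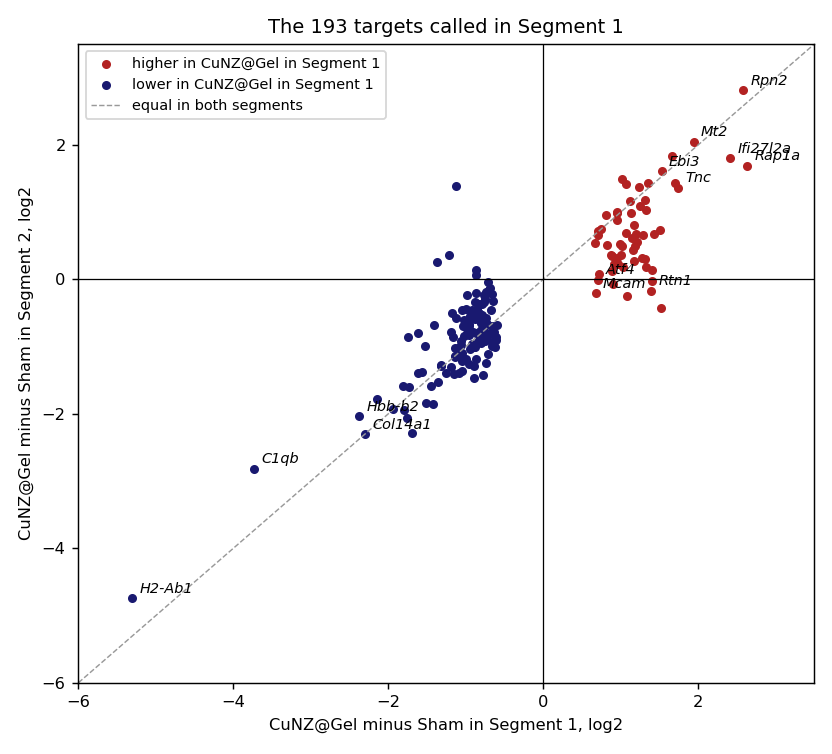
Log2 change, CuNZ@Gel minus Sham, of the 193 targets called in Segment 1, with Segment 1 on the x axis and Segment 2 on the y axis. The dashed line marks equal change; 181 points have the same sign in both segments.

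CuNZ@Gel was finally set beside Gel to see which values stood apart from both. The comparisons with Sham and with Gel use the same CuNZ@Gel specimens, so only their own values are given. Against Gel, 150 of 19613 targets (0.765%) were called, 107 higher (0.546%) and 43 lower (0.219%). Among the targets named above, Rpn2, Rap1a, Tnc, Ccn2 and Fcnb were called higher, and C1qb, Mrc1, Scara3, Clec2j and 2310022A10Rik called lower, in CuNZ@Gel than in either other treatment. Mt2 was intermediate, above Sham and below Gel, and C1qtnf3, Itga11, Col12a1, Thbs2 and Gpc1 were intermediate in the other sense, below Sham and above Gel. For H2-Ab1, Hbb-b2, Ifi27l2a, Ebi3, Zic1, Lhx8 and Col14a1, by contrast, CuNZ@Gel differed from Sham while its difference from Gel did not pass.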

How the data were processed

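The authors deposited 1 file per area with a signal value for each target. The software for counting, the probe filter and the scaling were not stated in the labels. Dividing each value by the smallest of its area gave a whole number, to a tolerance of 0.01, for at least 99.98% of targets in every area, which recovered the counts. These counts served edgeR 4.0.16 and DESeq2 1.42.0 as alternatives; edgeR called 227 targets, against 193 by limma. The main test was limma 3.58.1 in R 4.3.3 (trend and robust) on log2(value + 1), averaged over the 2 areas of a specimen, over all 6 Segment 1 specimens with contrast CuNZ@Gel minus Sham. A target was tested if 2 or more of the 12 areas exceeded their negative probe, with Benjamini-Hochberg adjustment over all of them. Fold changes are on the log2(value + 1) scale and understate changes of low targets. The background of an area was the 99th percentile over its receptor targets for odorants and pheromones.

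Named targets were the 14 largest rises and 14 largest falls among called targets above background in at least 2 of the 8 areas with specimens apart, up to 4 per list by p, and a fixed set including Mt1, Mt2, C3 and H2-Ab1; a few that this rule picks are not reported here. The members, the 51 lists and the fixed set were chosen with earlier results of these data known. The method was run on simulated data in which every target had the same spread, unlike the real targets. There the main test recovered 64% of changes of 1 log2 unit and 100% of changes of 2. The test between segments recovered 0% and 6% of them. Same-numbered specimens did not deviate together (correlations of -0.0887, -0.0935 and 0.0702), so the numbers were not taken as pairs. Target symbols follow mouse naming, and 16665 of 19963 equal a rat symbol. Precision is limited by 2 specimens per group, and recovered totals are given with the results.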

Additional observations from a re-analysis of the deposited data

Results flagged for a closer look

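For each of the 75 targets named there were 2 groups of 4 areas, 150 in all. In 10 of them (6.67%) 1 area stood apart from the other 3 by Dixon's criterion on the log2 scale. Chance gives about 1 in 20 for 4 independent values. The 4 areas were 2 from each of 2 specimens, so that rate does not strictly apply. Among CuNZ@Gel areas, Ifi27l2a was low in 1 area at 93.8 and Lhx8 at 8.49. Ctsz was high in 1 CuNZ@Gel area at 330, Cd68 at 228 in the same area, and Ftl1 at 523 in another. Among Sham areas, Tnfrsf14 was low in 1 area at 1.44 and H2-Ab1 at 118, both in region 2 of specimen 1. In region 2 of Sham specimen 2, Ccn2 was high at 13, C1qb at 114 and Gpc1 at 231. For H2-Ab1, C1qb, Gpc1, Ifi27l2a, Lhx8, Ccn2, Tnfrsf14 and Ctsz the area that stood apart did not reach the other group. The third CuNZ@Gel area of Ftl1 and the fourth of Cd68 fell within the Sham range.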

How the results depend on the processing

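With 2 specimens per group, the count of calls depended on how the spread was estimated. Against Sham, 193 targets were called, and 12 of 22 alternatives stayed within 1.5 times that count. The exceptions were limma without trend and robust steps (10), a fit of the 2 treatments only (375), DESeq2 (96), region 1 only (64) and region 2 only (54). Leaving out 1 specimen gave 61 to 363: 61 without CuNZ@Gel specimen 2, 65 without Sham specimen 1, 110 without CuNZ@Gel specimen 1, and 363 and 356 without Gel specimens 1 and 2. Against Gel, 150 targets were called, with 15 by limma without trend and robust steps, 53 by DESeq2, 50 from region 2 only and 69 to 241 with 1 specimen left out (69 without CuNZ@Gel specimen 2, 241 without Gel specimen 2). With the replicate number as a block the counts were 159 against Sham and 133 against Gel; the labels do not say that equal numbers pair specimens. The difference between segments gave 0 calls under its 14 alternatives too, which in a test of so little power says nothing about stability. All 57 named targets that were called kept their direction under every alternative run, and 8 also kept their call: Rpn2, Rap1a, H2-Ab1, C1qb, Hbb-b2, C1qtnf3, Alpl and 2310022A10Rik. Without limma's trend and robust steps 48 of the 57 lost it. Targets that were not called and turned sign were Acta2 (0.0807 after quantile normalisation, 0.0766 in region 1 only, -0.399 to 0.0217 with 1 specimen left out, above 0 without CuNZ@Gel specimen 2), Fn1 (0.157 after quantile normalisation, 0.00572 in region 1 only), Cd74 (0.108 after quantile normalisation, 0.00491 after median centring, 0.134 in region 2 only, -0.527 to 0.381 with 1 specimen left out, above 0 without Sham specimen 2) and Kdm6b (-0.0375 in region 1 only, -0.0104 to 0.333 with 1 specimen left out, below 0 without CuNZ@Gel specimen 2). The cause was not tested.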

Other observations

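A pair of further gene families, listed after their values were seen, held several targets called lower in CuNZ@Gel areas. Of 26 subunits and accessory proteins of the vacuolar ATPase, the proton pump that acidifies lysosomes, 14 were above background, 13 of these had a negative log2 change against Sham, and the median was -0.574, where 64.3% of all 5588 targets above background had a negative change. The 5 called were all lower: Atp6ap2, Atp6v0c, Atp6v0e, Atp6v1c1 and Atp6v1d. The share called lower was 0.683% over all targets and 2.29% over those above background. Atp6v0c, a subunit of the membrane rotor, read 401, 402, 447 and 450 in CuNZ@Gel areas, against 1184, 1134, 783 and 595 in Sham areas, so that the groups did not overlap. Of 9 targets of the pentose phosphate pathway, which supplies NADPH, 3 were called lower (G6pd2, Tkt and Taldo1) and 1 higher (Shpk). The share called higher was 0.301% over all targets and 0.913% over those above background. The pathway had a median of -0.406 over its 8 targets above background, 6 of which had a negative change. Tkt, transketolase, read 123, 105, 113 and 109 in CuNZ@Gel areas, against 227, 299, 189 and 153 in Sham areas. These families were picked for how they moved, so their counts support nothing further.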
